A study of Psychotria grandis and Psychotria costivenia and Psychotria revoluta with 6 samples.

Results

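In leaves of Psychotria costivenia, a nickel-hyperaccumulating shrub of Cuba, 300 contigs stood at least 4-fold above every library of P. grandis and P. revoluta. A contig is a transcript assembled from reads, and all reads were counted on 45143 contigs built de novo from P. grandis, so the 300 contigs made up 0.665% of the reference. They were chosen by the measured values. The lower of the P. costivenia libraries, as CPM + 1 (CPM is the count scaled by the library total to a common total), had to be at least 4 times the highest of the other 4 libraries. Each species was represented by 2 wild plants, with 1 library per plant. The P. costivenia plants, labelled as hyperaccumulators, came from La Coca and were collected on 12 June 2014. The P. grandis plants, also labelled as hyperaccumulators, came from Mil Cumbres and were collected on 27 June 2014. The P. revoluta plants, labelled as non-accumulators, came from Mil Cumbres on 27 July 2014 (plant 1) and 27 June 2014 (plant 2). All 3 species grew on serpentine soil in gallery forest, and leaf polyA RNA was sequenced as strand-specific paired reads. Species, locality and date set P. costivenia apart from the other plants together, so these cannot be told apart. The count columns of the P. revoluta libraries carry another species prefix than their labels, and the labels were followed.

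Hyperaccumulators take up metal from the soil and hold it in their leaves at levels that harm most plants. Nickel is carried upward in the xylem, bound to small ligands such as organic acids, histidine or nicotianamine, and is stored largely in vacuoles of the leaf. Membrane transporters of the ferroportin (IREG), ZIP and other families are known to move nickel and related metals in plants. The contigs here are known by running number only. No function is attached to any of them, and no pathway list could be applied. CPM is not corrected for contig length, so a contig is compared between libraries and not with other contigs.

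Library totals ran from 45676087 counts (P. grandis plant 2) to 57907913 counts (P. revoluta plant 1). Where no read was counted, up to 3 counts remain possible, equal to 0.0518 to 0.0657 CPM per library. P. grandis plant 1 had reads on 45142 contigs and the other libraries on 35362 to 38589. The plants of a species were at least 4-fold apart in CPM + 1 for 500 contigs in P. costivenia (1.11%), 3957 in P. grandis (8.77%) and 112 in P. revoluta (0.248%). The main counts of P. grandis against P. revoluta are therefore also given without each P. grandis plant.

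The 300 contigs took 6.30% and 7.31% of all counts in the P. costivenia plants, against 0.391% and 0.520% for P. grandis and 0.411% and 0.448% for P. revoluta. With 95% exact (Clopper-Pearson) intervals, which cover counting error only because reads are not independent molecules, the share was 6.297% to 6.311% in P. costivenia plant 1 and 0.3888% to 0.3923% in P. grandis plant 1. The median contig stood at 28.5 and 31.6 CPM in P. costivenia, against 1.87 and 1.69 CPM in P. grandis and 0.846 and 0.820 CPM in P. revoluta. As the contigs were chosen on this difference, its size is a description and no test was made of it. The ratio of mean CPM in P. costivenia to that in P. grandis had a median of 14.4 and ran from 4.94 to 388. The ratio to P. revoluta had a median of 32.6 and ran from 4.74 to 6031, with contigs that had no counts in P. revoluta set to 3 counts over both libraries.

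**Figure D1:**
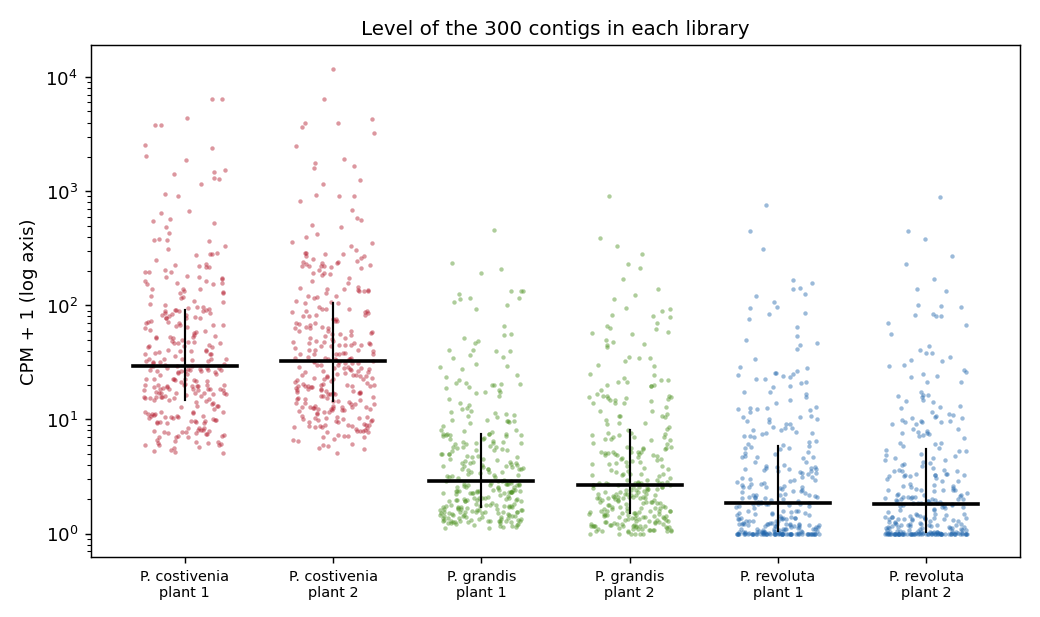
Each point is 1 of the 300 contigs in 1 library, on a log axis of CPM + 1. The thick line is the median and the thin line runs from the lower to the upper quartile. The medians are 28.5 and 31.6 CPM for P. costivenia, against 1.87 and 1.69 CPM for P. grandis and 0.846 and 0.820 CPM for P. revoluta, where 54 and 58 contigs lie at 0 counts.

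Most of the contigs were moderately covered in P. costivenia. The mean over its plants was under 10 CPM for 47 contigs, 10 to 100 CPM for 180, 100 to 1000 CPM for 58 and above that for 15. Few contigs supplied most of the reads: the 10 with the most reads held 55.8% of the contigs' summed CPM in plant 1 and 59.8% in plant 2. Without the 3 contigs highest by mean CPM, the summed level was 45778 and 51130 CPM in P. costivenia, against 3138 and 3906 CPM in P. grandis and 3177 and 3350 CPM in P. revoluta. They included 15 of the 100 contigs with the most reads in P. costivenia plant 1, and 14 of those in plant 2.

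The separation was narrow for many contigs and wide for few. The ratio that chose them, lowest P. costivenia CPM + 1 over highest CPM + 1 elsewhere, had a median of 5.48 and an upper quartile of 7.54. It was under 5 for 118 contigs and at least 10 for 46 contigs, at least 20 for 10 and at least 50 for 4. Just inside the threshold, Pgra_v1_contig_30680 had a ratio of 4.006 and Pgra_v1_contig_33561 one of 4.007. Just outside it, Pgra_v1_contig_15872 had 3.986 and Pgra_v1_contig_33905 had 3.979. Pgra_v1_contig_15872 stood at 203 and 274 CPM in P. costivenia, against 8.62 and 50.1 CPM in P. grandis and 22.2 and 28.1 CPM in P. revoluta. It was kept out by P. grandis plant 2 alone. With P. grandis plant 1 left out of the rule, 629 contigs met it, and with P. costivenia plant 1 left out, 495 did. Both sets held all 300 contigs, as fewer libraries can only add to them. By the same rule, 88 contigs were higher in P. grandis and 18 in P. revoluta than in all other libraries, and with the rule turned round 385 were lower in P. costivenia.

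The contigs with the most reads in P. costivenia ranged from those far above all other plants to those that were well read everywhere. Pgra_v1_contig_324 stood at 6481 and 11852 CPM in P. costivenia, against 115 and 57.8 CPM in P. grandis and 44.2 and 79.4 CPM in P. revoluta. It alone gave 10.3% and 16.2% of the contigs' reads in P. costivenia plants 1 and 2. The P. grandis and P. revoluta plants overlapped for it. Pgra_v1_contig_2919 had 3799 and 3993 CPM in P. costivenia, against 64.6 and 42.1 CPM in P. grandis and 27.6 and 15.4 CPM in P. revoluta. Pgra_v1_contig_15471 had the widest ratio of all, 79.7, with 1889 and 1780 CPM in P. costivenia, against 21.3 and 14.6 CPM in P. grandis and 7.62 and 5.12 CPM in P. revoluta. For both contigs the species did not overlap, and P. grandis lay between. Pgra_v1_contig_4497 showed the same order, at 2530 and 2495 CPM in P. costivenia, against 114 and 80.3 CPM in P. grandis and 21.8 and 13.4 CPM in P. revoluta. Pgra_v1_contig_5090 stood at 2375 and 4327 CPM in P. costivenia, against 18.3 and 78.6 CPM in P. grandis and 23.0 and 28.4 CPM in P. revoluta. Here P. grandis plant 1 was the lowest and plant 2 the highest of the other 4.

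Pgra_v1_contig_2384 was the most read of the 300 outside P. costivenia. It had 6434 and 6483 CPM in P. costivenia, against 461 and 906 CPM in P. grandis and 752 and 881 CPM in P. revoluta. Pgra_v1_contig_5365 stood at 3779 and 3998 CPM in P. costivenia, against 113 and 227 CPM in P. grandis and 446 and 443 CPM in P. revoluta, so that P. grandis was the lowest species. Pgra_v1_contig_3406 had 4344 and 3650 CPM in P. costivenia, against 192 and 332 CPM in P. grandis and 139 and 168 CPM in P. revoluta. Pgra_v1_contig_2941 came near the threshold with a ratio of 4.29. Its levels were 2025 and 1673 CPM in P. costivenia, against 234 and 389 CPM in P. grandis and 311 and 382 CPM in P. revoluta. These contigs were common leaf transcripts in all 3 species that drew still more reads in P. costivenia.

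**Figure D2:**
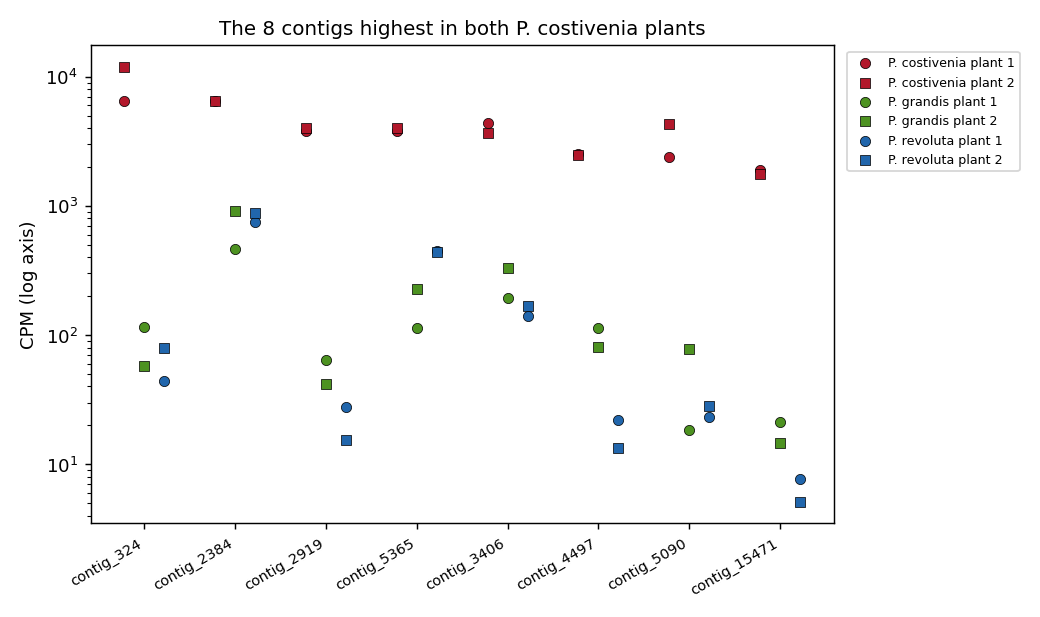
CPM on a log axis of the 8 contigs with the highest lower value of the P. costivenia plants, with circles for plant 1 and squares for plant 2 of each species. P. costivenia lies at the top throughout. P. grandis lies above P. revoluta for Pgra_v1_contig_2919, Pgra_v1_contig_3406, Pgra_v1_contig_4497 and Pgra_v1_contig_15471, below it for Pgra_v1_contig_5365, and overlaps it for the other 3.

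Contigs with few reads elsewhere reached wide ratios from lower levels. Pgra_v1_contig_43074 stood at 169 and 233 CPM in P. costivenia, against 0.356 and 0.679 CPM in P. grandis and 1.71 and 1.00 CPM in P. revoluta, a ratio of 62.7. Pgra_v1_contig_35798 had 80.2 and 137 CPM in P. costivenia, against 0.356 and 0.657 CPM in P. grandis and 1.54 and 0.738 CPM in P. revoluta. In both contigs P. grandis was the lowest species, with 18 counts each in plant 1. Pgra_v1_contig_41956 had 45.6 and 43.9 CPM in P. costivenia, against 0.455 and 0.241 CPM in P. grandis and 0.190 and 0.410 CPM in P. revoluta, where the plants of both species overlapped.

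The P. costivenia plants were close to each other for most of the contigs. The higher plant exceeded the lower by a median of 1.25-fold and an upper quartile of 1.50-fold. They differed at least 2-fold for 26 contigs (8.67%), 7 higher in plant 1 and 19 higher in plant 2. Among the 14949 contigs with at least 4 CPM in both P. costivenia plants, 735 (4.92%) differed that much, with a median of 1.16-fold. Plant 1 was the higher for 124 contigs and plant 2 for 176. The widest gap was that of Pgra_v1_contig_27187, at 5.26 CPM in plant 1 and 33.1 CPM in plant 2, against 0.396 and 0.307 CPM in P. grandis and 0 and 1 counts in P. revoluta. Pgra_v1_contig_30244 went the other way, with 33.2 CPM in plant 1 and 9.42 CPM in plant 2, against 1.54 and 0.591 CPM in P. grandis and 1 and 2 counts in P. revoluta. Pgra_v1_contig_26850 stood at 9.35 CPM in plant 1 and 31.8 CPM in plant 2, against 0.831 and 1.03 CPM in P. grandis, with 0 counts in P. revoluta.

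**Figure D3:**
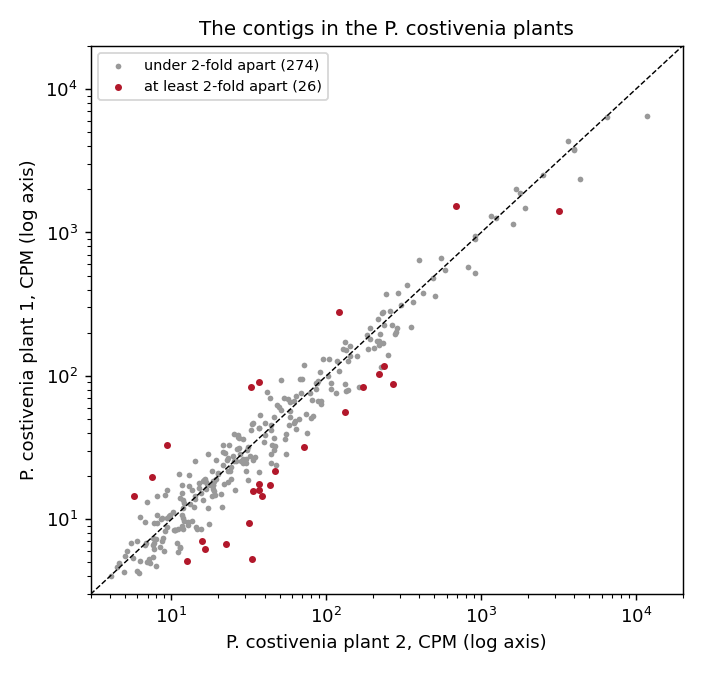
CPM of the 300 contigs in P. costivenia plant 1 (vertical) against plant 2 (horizontal), both on log axes, with a dashed line of equal level. The 26 contigs at least 2-fold apart are in red, and 19 of them lie below the line, where plant 2 is higher.

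Some of the contigs had no reads in P. revoluta, and none lacked them in both P. grandis libraries. In both P. revoluta libraries 44 contigs (14.7%) had 0 counts, beside 5263 (11.7%) of all contigs at any level, and 0 contigs had 0 counts in both P. grandis libraries. P. grandis plant 1 had reads on every one of the 300, and plant 2 had none on 6. Over the whole reference 1 contig had 0 counts in both P. grandis libraries, and 7688 (17.0%) had none in plant 2. The 44 contigs had medians of 8.64 and 12.8 CPM in P. costivenia and 0.564 and 0.252 CPM in P. grandis. All 300 had at least 4 CPM in both P. costivenia plants. Among all contigs at that level, the 300 included, 155 (1.04%) had 0 counts in both P. revoluta libraries. The rule chose contigs low in P. revoluta, so the larger share among the 300 was built in and is no result. Reads of each species were counted on P. grandis contigs, and the part of sequence differences in these counts was not tested.

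Pgra_v1_contig_4883 drew the most reads of the 44. It stood at 115 and 225 CPM in P. costivenia, from 5356 and 10853 counts, against 6.49 and 1.95 CPM in P. grandis and 0 counts in P. revoluta. Against the 3 counts that a 0 over both P. revoluta libraries allows (0.0281 CPM), the mean of the P. costivenia plants was at least 6031-fold higher and that of the P. grandis plants at least 150-fold higher. Pgra_v1_contig_26470 had 42.3 and 43.8 CPM in P. costivenia and 3.03 and 0.898 CPM in P. grandis, and its mean in P. costivenia was at least 1531-fold higher than in P. revoluta. Pgra_v1_contig_2518 had 38.9 and 40.0 CPM in P. costivenia and 1.78 and 0.569 CPM in P. grandis. For these contigs the order was P. costivenia, then P. grandis plant 1, then P. grandis plant 2. Pgra_v1_contig_41624 had 21.6 and 23.7 CPM in P. costivenia and 0.673 and 1.05 CPM in P. grandis, with plant 2 the higher in both species.

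How the second hyperaccumulator, P. grandis, stood to the non-accumulator was not part of the rule, which treated their 4 libraries alike. Both P. grandis plants lay above both P. revoluta plants for 177 of the 300 contigs (59.0%) and below them for 22 (7.33%), while the plants overlapped for 101. Among all 35660 contigs that passed the filter on low counts, the shares were 33.3% above and 26.9% below. All 300 contigs passed that filter, 32 of them only through P. costivenia, where the rule made them high. Of the 268 that passed it on the P. grandis and P. revoluta libraries alone, P. grandis lay above for 153 (57.1%) and below for 22 (8.21%), against 31.8% and 28.1% of the 34172 contigs that passed there. The 177 contigs had medians of 25.3 and 25.6 CPM in P. costivenia, 2.27 and 1.23 CPM in P. grandis and 0.207 and 0.164 CPM in P. revoluta. The 22 contigs had medians of 78.5 and 65.1 CPM in P. costivenia, 1.31 and 2.16 CPM in P. grandis and 3.37 and 3.01 CPM in P. revoluta. Without P. grandis plant 1 the numbers were 212 above and 45 below, against shares of 46.3% and 34.4% of all tested contigs. Without P. grandis plant 2 they were 215 and 65, against 46.5% and 46.8%. Without P. revoluta plant 1 they were 193 and 38, against 39.3% and 32.6%, and without P. revoluta plant 2 they were 192 and 34, against 37.9% and 34.8%. For the 268 contigs, leaving out P. grandis plant 1 gave 188 above and 43 below (45.4% and 35.5% of all that passed there), and leaving out plant 2 gave 183 and 65 (44.4% and 48.8%). With 3 plants left, non-overlap is met more easily, among these contigs and among all.

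With both P. grandis plants, the share with P. grandis above was smaller among contigs with more reads in these species. Without plant 1 it was largest from 10 to 100 CPM and smallest above that, among 16 contigs. Without plant 2 it was largest under 1 CPM and smallest from 10 to 100 CPM. Of the 268 contigs, those with a highest CPM under 1 over P. grandis and P. revoluta had both P. grandis plants above in 23 of 36 cases (63.9%), against 33.7% of the 4346 contigs in that class. From 1 to 10 CPM it was 93 of 151 (61.6%), against 32.7% of 14250. From 10 to 100 CPM it was 31 of 65 (47.7%), against 30.8% of 12866. Above that it was 6 of 16 (37.5%), against 28.9% of 2710, so the 16 contigs stood little above the background. Without P. grandis plant 1 the shares, from the lowest to the highest of these classes, were 63.9%, 70.9%, 75.4% and 56.3%, against 45.5%, 45.6%, 45.9% and 41.4% of all contigs in them. Without plant 2 they were 83.3%, 72.2%, 53.8% and 56.3%, against 51.0%, 45.4%, 42.3% and 37.9%. Among the 187 contigs with at least 10 counts in every library, 81 (43.3%) had P. grandis above and 21 (11.2%) below, against 28.3% and 30.9% of the 24223 tested contigs of that kind. Without P. grandis plant 1 these 187 gave 116 above and 39 below (43.8% and 37.9% of all), and without plant 2 they gave 106 and 64 (38.9% and 54.7% of all). The 385 contigs lower in P. costivenia had P. grandis above P. revoluta in 89 cases (23.1%) and below in 117 (30.4%). All tested contigs gave 33.3% and 26.9%, and those with at least 10 counts in every library 28.3% and 30.9%. The turned rule needs reads in every P. grandis and P. revoluta library, so the 385 are nearer the latter. These shares were not tested against each other. Accumulation, the other traits of each species and the match to the reference cannot be told apart in this order.

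**Figure D4:**
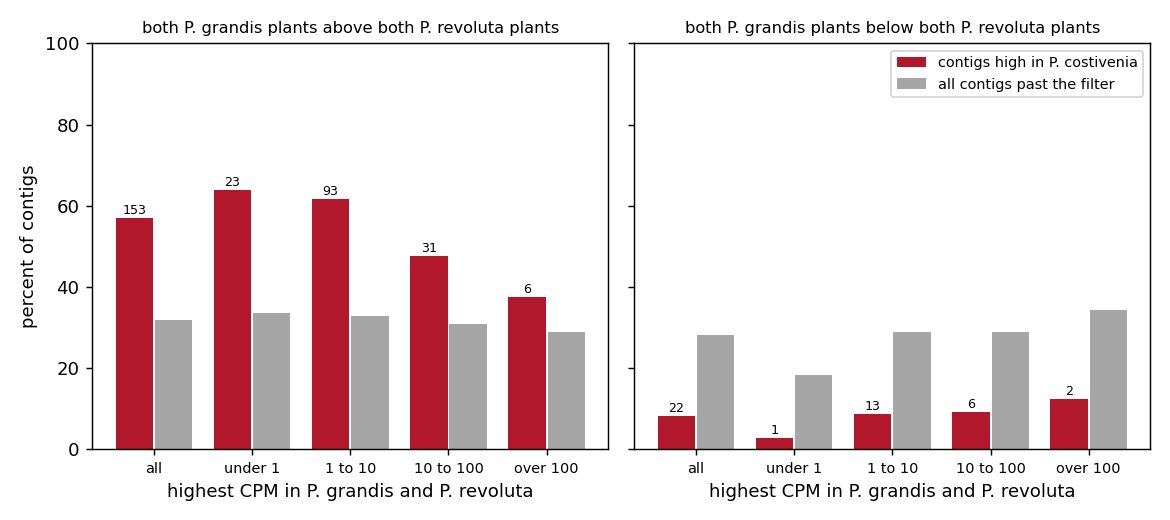
Percent of contigs for which both P. grandis plants lie above (left) or below (right) both P. revoluta plants, in red for the 268 contigs high in P. costivenia that passed the filter on these libraries and in grey for all 34172 contigs that passed it, by the highest CPM over P. grandis and P. revoluta. Numbers above the red bars are contigs, 153 above and 22 below in all. The gap on the left is narrowest over 100 CPM, with 6 of 16 contigs, 37.5% against 28.9%.

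A test of P. grandis against P. revoluta called none of the contigs. The edgeR quasi-likelihood test, with p-values adjusted over all tested contigs, called 0 of 300 at the threshold of 0.05, and 0 of 35660 overall (0%), with a smallest adjusted p of 0.0842 among the 300. Before adjustment (edgeR, p up to 0.05), 138 of the 300 were higher in P. grandis and 4 were lower, where all tested contigs gave 18.2% higher and 2.34% lower. At that p (edgeR), 134 were higher and 8 lower without P. grandis plant 1, against 13.9% and 4.31% of all. Without plant 2, 161 were higher and 37 lower (edgeR), against 25.2% and 23.6%. These counts over the 300 include the 32 contigs that passed the filter only through P. costivenia. Of the other 268, the fit of all 6 libraries gave 116 higher and 4 lower at that p (edgeR). All contigs that passed there gave 17.0% and 2.46%. In the fit of the 4 P. grandis and P. revoluta libraries alone (edgeR), 268 of the contigs were tested. At that p, 100 of them were higher and 1 lower, against 14.4% and 1.39%. The median log2 fold change there was 0.98, beside 0.08 over all contigs tested, and 0 passed after adjustment. DESeq2 called 122 higher and 3 lower, where it called 14.0% and 1.45% of all tested contigs. Of the 268 contigs that passed the filter without P. costivenia, it called 102 higher and 3 lower, against 13.3% and 1.52% of all contigs that did. The log2 fold change (edgeR) was above 0 for 239 contigs (79.7%) and below 0 for 61, against 53.9% and 46.1% of all tested contigs. Of the 268, it was above 0 for 207 (77.2%) and below 0 for 61, against 51.8% and 48.2% of all contigs that passed there. It was above 0 for 227 of the 300 without P. grandis plant 1, against 18312 of the 35759 contigs tested there. Leaving out plant 2 gave 224 of the 300 above 0, against 22798 of 40570. Among the 268 these fits gave 201 and 192 above 0, against 50.3% and 48.3% of all that passed there. In the fit of all 6 libraries, its median over the 300 was 1.32 (1.27 with contigs without reads in P. revoluta at their bound), beside 0.13 over all tested contigs. Without P. grandis plant 1, edgeR called 40 of the 300 higher and 0 lower, against 1.40% and 0.0531% of all contigs. Without plant 2 it called 143 higher and 27 lower, against 19.2% and 18.3%. Among the 268 these fits called 40 higher and 0 lower (1.47% and 0.0561% of all that passed there), and 117 higher and 27 lower (19.8% and 21.7%). Both fits left P. grandis with 1 plant, assumed to vary like the other species.

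Pgra_v1_contig_5165 had the smallest p of the contigs higher in P. grandis than in P. revoluta. Its levels were 126 and 116 CPM in P. costivenia and 17.0 and 18.8 CPM in P. grandis, against 0.898 and 0.697 CPM in P. revoluta. The plants of each species lay close together, and the log2 fold change between P. grandis and P. revoluta was 4.54 with an SE of 0.30 (edgeR adjusted p = 0.0842). With no filter on low counts it passed the edgeR test, the only one of the 300 to do so (adjusted p = 0.0344), where 0.0354% of all contigs passed as higher in P. grandis. Pgra_v1_contig_22029 had 70.1 and 53.2 CPM in P. costivenia and 2.27 and 2.43 CPM in P. grandis, against 0.190 and 0.123 CPM in P. revoluta. Its log2 fold change was 3.94 with an SE of 0.37 (edgeR adjusted p = 0.0976). Pgra_v1_contig_16932 had 43.5 and 36.9 CPM in P. costivenia and 2.61 and 5.71 CPM in P. grandis, against 0.138 and 0.143 CPM in P. revoluta. Its log2 fold change was 4.88 with an SE of 0.48 (edgeR adjusted p = 0.0976). In each of these contigs the 3 species were fully separated, with P. grandis in the middle. The rule and the choice by p favoured this order. DESeq2, on the same counts, called all 3. Without P. grandis plant 1 their log2 fold changes (edgeR) were 4.50, 3.87 and 5.27, in the order named. Without plant 2 they were 4.45, 3.88 and 4.24.

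In the opposite direction, Pgra_v1_contig_25106 had 175 and 219 CPM in P. costivenia and 4.91 and 8.95 CPM in P. grandis, against 18.2 and 22.4 CPM in P. revoluta. Its log2 fold change was -1.53 with an SE of 0.37 (edgeR adjusted p = 0.124). Pgra_v1_contig_28573 had 329 and 361 CPM in P. costivenia and 1.36 and 6.55 CPM in P. grandis, against 24.5 and 13.3 CPM in P. revoluta. Its log2 fold change was -2.26 with an SE of 0.74 (edgeR adjusted p = 0.189). Pgra_v1_contig_43074, also named for its wide ratio, had one of -1.36 with an SE of 0.44 (edgeR adjusted p = 0.186). In these contigs the hyperaccumulators stood at opposite ends, with the non-accumulator between. DESeq2 called Pgra_v1_contig_25106 (adjusted p = 0.00145) and Pgra_v1_contig_28573 (adjusted p = 0.0165), and did not call Pgra_v1_contig_43074 (adjusted p = 0.0593). Leaving out P. grandis plant 1 gave Pgra_v1_contig_28573 a log2 fold change of -1.58 (edgeR adjusted p = 0.156), and leaving out plant 2 gave -3.72 (edgeR adjusted p = 0.00499). Pgra_v1_contig_25106 and Pgra_v1_contig_43074 likewise passed in edgeR without plant 2 (adjusted p = 0.00972 and 0.0229) and not without plant 1 (0.113 and 0.308).

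By size, 24 contigs had a mean CPM + 1 at least 4-fold higher in P. grandis than in P. revoluta, 53 were 2- to 4-fold higher, 216 lay within 2-fold, 6 were 2- to 4-fold lower and 1 was at least 4-fold lower. Of all tested contigs, 5.32% were at least 4-fold higher, 11.0% 2- to 4-fold higher, 76.5% within 2-fold, 6.71% 2- to 4-fold lower and 0.432% at least 4-fold lower. Of the 268 contigs that passed the filter without P. costivenia, 24 (8.96%) were at least 4-fold higher and 53 (19.8%) 2- to 4-fold higher. Within 2-fold lay 184 (68.7%), while 6 (2.24%) were 2- to 4-fold lower and 1 (0.373%) at least 4-fold lower. All contigs that passed there gave 5.45%, 11.2%, 75.9%, 7.01% and 0.454%. Adding 1 to each CPM narrows the ratio of contigs with few reads. The median of the mean CPM over the 300 was 1.99 in P. grandis and 0.836 in P. revoluta. The class within 2-fold therefore also holds contigs far apart in CPM itself. One is Pgra_v1_contig_41624, with a mean of 0.862 CPM in P. grandis and 0 counts in P. revoluta. With P. grandis plant 2 alone, 13 of the 300 were at least 4-fold higher (1.70% of all), and with plant 1 alone 32 were (8.74% of all). At least 4-fold lower were 0 contigs with plant 2 alone (0.250% of all) and 11 with plant 1 alone (7.98% of all). Among the 268 these counts were the same. Of all contigs that passed there, 1.78% were higher and 0.263% lower with plant 2 alone, and 8.87% and 8.33% with plant 1 alone. The 24 contigs had medians of 108 and 118 CPM in P. costivenia, 13.5 and 5.85 CPM in P. grandis and 0.423 and 0.328 CPM in P. revoluta. The widest of them, chosen after its values were seen, was Pgra_v1_contig_4728, at 226 and 267 CPM in P. costivenia, 53.8 and 24.2 CPM in P. grandis and 0.207 and 0.471 CPM in P. revoluta.

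**Figure D5:**
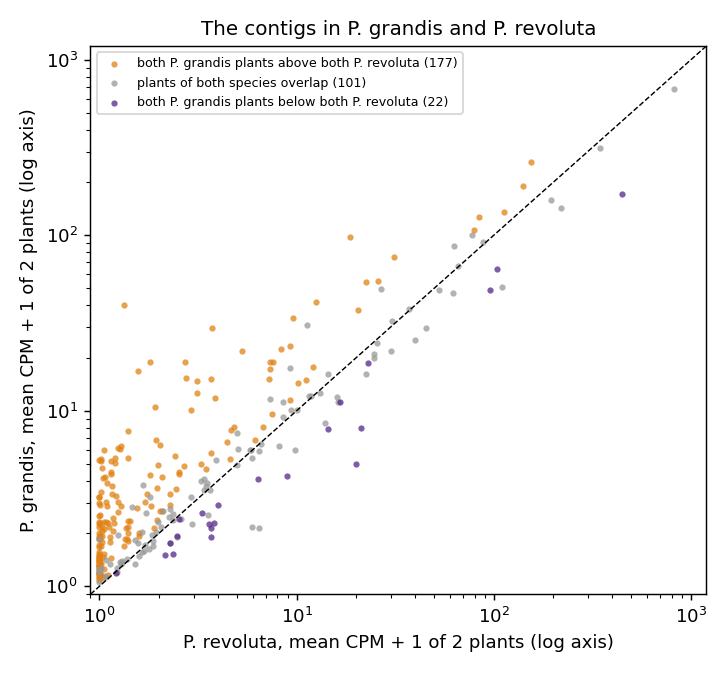
Mean CPM + 1 of the P. grandis plants (vertical) against that of the P. revoluta plants (horizontal) for the 300 contigs, both on log axes, with a dashed line of equal level. Orange marks the 177 contigs with both P. grandis plants above, purple the 22 with both below and grey the 101 that overlap. The orange points crowd at the left edge, where P. revoluta is near 0 CPM.

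The highest library outside P. costivenia was P. grandis plant 1 for 171 contigs, P. grandis plant 2 for 79, and P. revoluta plants 1 and 2 for 26 and 24. Of all tested contigs, P. grandis plant 1 was the highest of these 4 libraries in 40.8% and P. grandis plant 2 in 18.7%. P. revoluta plants 1 and 2 were so in 25.1% and 15.3%. The 300 gave 57.0%, 26.3%, 8.67% and 8.0%. The 268 that passed the filter without P. costivenia gave 140 (52.2%), 78 (29.1%), 26 (9.70%) and 24 (8.96%). All contigs that passed there gave 38.6%, 19.3%, 26.2% and 15.9%. The P. grandis plants differed at least 4-fold in CPM + 1 for 24 contigs (8.0%), with plant 1 higher in 10 and plant 2 higher in 14. For 9 contigs (3.0%), P. grandis plant 1 lay at least 4-fold below its conspecific and both P. revoluta plants, beside 1843 (4.08%) of all contigs. Pgra_v1_contig_24282, the most read of these 9 and chosen after its values were seen, stood at 1147 and 1599 CPM in P. costivenia, against 2.95 and 281 CPM in P. grandis and 167 and 272 CPM in P. revoluta. Pgra_v1_contig_33172, another of the 9, had 525 and 913 CPM in P. costivenia, against 2.12 and 93.8 CPM in P. grandis and 94.1 and 95.8 CPM in P. revoluta. By this choice P. grandis plant 1 was the lowest of these libraries in all 9. P. grandis plant 2 was level with P. revoluta in Pgra_v1_contig_33172. In Pgra_v1_contig_5785 it lay above, at 44.3 CPM against 20.2 and 29.2 CPM.

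Running numbers of the 300 contigs were spread over the reference, from 90 to 44385 with a median of 21488. They made up 0.640% of contigs 1 to 5000, 0.820% of contigs 10001 to 20000 and 0.311% of those above 40000, where contigs had few reads (median 31 counts over all libraries). Consecutive numbers occurred in 4 pairs. Pgra_v1_contig_5165 and Pgra_v1_contig_5166 were 1 pair, and Pgra_v1_contig_5166 stood at 30.5 and 45.8 CPM in P. costivenia, against 6.11 and 4.60 CPM in P. grandis and 1.11 and 0.963 CPM in P. revoluta, the same order of species as its neighbour. Pgra_v1_contig_33172 and Pgra_v1_contig_33173 were another, and Pgra_v1_contig_33173 had 16.2 and 16.7 CPM in P. costivenia, against 1.88 and 0.482 CPM in P. grandis and 0.0173 and 0.0410 CPM in P. revoluta. Its order of P. grandis plants was the reverse of that of Pgra_v1_contig_33172. Whether contigs of a pair share a gene or reads could not be seen from counts, and the contigs cannot be taken as independent of each other.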

How the data were processed

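Leaf polyA RNA of 6 wild plants was measured, 2 per species. Per the labels' protocols, RNA was treated with DNase and libraries were made with a stranded Illumina TruSeq kit. Per the file headers, the deposited numbers are raw counts of reads on each contig of a P. grandis transcriptome assembled de novo. Which assembler, aligner and counter were run, and whether strand was used, is not given in the sources used here. Near-identical or overlapping contigs are therefore uncertain. Every table listed the same contigs, and no library was left out.

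CPM and the rule were computed in Python 3.11.15 with pandas 2.3.3. P. grandis against P. revoluta was tested two-sided in R 4.3.3 with edgeR 4.0.16 (filterByExpr with minimum count 10 and minimum total 15, TMM, robust quasi-likelihood fit of all 6 libraries with species as factor, Benjamini-Hochberg adjustment over 35660 contigs, threshold 0.05). Residual degrees of freedom were 3, the prior ones 2.43 at the median, and the SE is the absolute log2 fold change over the square root of F. DESeq2 1.42.0, other scalings, pseudocounts, folds and filters, a replicate block and leaving out each plant were alternatives. No contrast with P. costivenia was tested, as the rule used it. Contigs were named by their level or ratio in P. costivenia, absence from P. revoluta, p of P. grandis against P. revoluta, spread between plants, or nearness to the threshold. The contigs, the rule and these choices were made with earlier results of these data known.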

Additional observations from a re-analysis of the deposited data

How the results depend on the processing

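The number of contigs, 300, was 389 with TMM-scaled CPM and 389 with DESeq2 size factors, and their summed level in P. costivenia (68077 CPM) was then 88164 and 87177 CPM. TMM in place of library totals shifted the median log2 ratio over tested contigs between P. costivenia and P. grandis to -0.24, against -0.48 with library totals, and between P. costivenia and P. revoluta to -0.00, against -0.29. A pseudocount of 0.1 gave 563 contigs and one of 5 gave 120. A 2-fold threshold gave 1357 contigs and 144081 CPM, and an 8-fold threshold 70 contigs and 38671 CPM. Leaving out 1 plant gave 307 to 629 contigs and 69098 to 85943 CPM.

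Between P. grandis and P. revoluta, edgeR called 0 of the 300 with library totals and with the replicate number as a block, 0 of the 268 tested in the model of the 4 libraries, and 1 higher with no filter (0.0354% of all contigs). DESeq2 called 122 higher and 3 lower, against 14.0% and 1.45% of all tested contigs. Of the 268 it called 102 and 3, against 13.3% and 1.52% of all that passed there. An unadjusted p of at most 0.05 (edgeR) gave 138 and 4 of the 300, against 18.2% and 2.34% of all tested contigs. Of the 268 it gave 116 and 4, against 17.0% and 2.46% of all that passed there. Leaving out 1 plant gave 0 to 143 higher and 0 to 27 lower, with calls only where a P. grandis plant was left out (40 and 0 of the 268 without plant 1, 117 and 27 without plant 2). The labels do not say that equal plant numbers pair the plants. Deviations of plants with the same number from their species means correlated across contigs at -0.06 between P. grandis and P. revoluta, 0.12 between P. costivenia and P. grandis, and 0.01 between P. costivenia and P. revoluta. The 6 contigs named for this contrast kept their direction in every fit. They were chosen by their p in this contrast, so this is no independent check. Counts of plants that did not overlap, alternatives added after the data were seen, were 178 above and 22 below with TMM (33.4% and 27.4% of all tested contigs). With 1 plant left out they were 192 to 215 above (37.9% to 46.5% of all) and 34 to 65 below (32.6% to 46.8% of all). With 2 plants per species, an effect in P. grandis under its spread between plants could not be detected.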
